A study of Mus musculus with 4 samples.

Results

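The genes described here encode 9 subunits of the integrins, among them the chains of the receptors for osteopontin: the alpha chain genes Itgav, Itga4, Itga6, Itga9 and Itgal and the beta chain genes Itgb1, Itgb3, Itgb5 and Itgb7. They were chosen by gene symbol from a table of 21044 genes, leaving out Itgam, Itgax and Itgb2, the chains of the microglial complement receptors. RNA-seq was run on microglia taken from the corpus callosum, the largest white matter tract of the brain, of mice at postnatal day 7. The libraries comprised 2 from Lag3fl/fl mice (WT), whose Lag3 gene carries the flanking sites but was not deleted, and 2 from Lag3cKO-Cx3 mice (cKO), in which the same allele is deleted through a driver that the labels name only as Cx3. Lag3 encodes an inhibitory receptor of immune cells. The labels give neither the sex nor the number of animals behind a library. Every p-value here rests on the spread between libraries, which for the WT pair may be technical. Driver and deletion come together in the cKO group and cannot be told apart.

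Integrins are receptors made of 1 alpha and 1 beta chain that span the membrane and hold a cell to the matrix or to other cells. The beta chain is bound on its inner tail by talin and kindlin, which switch the receptor to its active form, and kinases of the Src and FAK families carry the signal inward. Osteopontin, encoded by Spp1 and secreted in quantity by the microglia of early white matter, is bound by the αv chain paired with β1, β3 or β5, and by α4 or α9 paired with β1. Integrin αvβ3 and αvβ5 also serve in the uptake of dying cells through the bridging protein MFG-E8.

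Total counts ranged from 14645187 to 16770162 per library. Lag3 was at 181.3 and 316.9 FPKM (a count scaled by gene length and library total) in the WT libraries and at 16.8 and 8.32 FPKM in the cKO libraries, lower where the label names the deletion. Its log2 fold change was -4.35 ± 0.52 (SE) in edgeR, which did not call it (edgeR adjusted p = 0.9997). In DESeq2 it was -4.34 ± 0.42 (SE) and was called (DESeq2 adjusted p = 1.46e-20). A gene that misses the edgeR threshold here is thus not shown to be unchanged. The 9 microglial markers summed to between 22300 and 26300 CPM (counts scaled to the library total adjusted by edgeR's TMM factor) in every library. None of these markers was at 0 in any library. The sum hides differences between the markers. Both cKO libraries were above WT for 3 of the 9 and below for 2, where 15.8% and 20.0% of all genes were so. Cx3cr1 was lower, at 6442 and 6554 CPM in WT and 3404 and 3034 CPM in cKO. It did not pass edgeR (adjusted p = 0.9997) but was called in DESeq2 (adjusted p = 4.08e-05). Replicate 2 of the cKO group differed from the other libraries. It had 12787 genes with a count against 14840 to 15899, no count of the Y-linked Ddx3y against 1306 to 1795, and 4355 counts of Xist, a transcript of female cells, against 0 to 117. By these counts cKO replicate 2 was female and the other libraries were male or largely male. The cKO libraries thus came from different animals, and sex was not balanced between the groups. The part of sex in the differences was not tested. In bulk samples, fewer cells of a type and less RNA per cell cannot be told apart.

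The members spanned a wide range of levels, and by FPKM Itgb1 and Itgb5 stood above each of the 5 alpha chain members in every library. FPKM is scaled by a gene length that here nearly equals the joined exons of all transcripts, from 2743 bases for Itgb7 to 13979 for Itga4. The order between genes depends on that length. By counts Itga6, at 2687 to 3049 per library, was above Itgb5, at 1435 to 2187. By FPKM, Itgb1 was highest, followed by Itgb5, Itga6, Itgb3 and Itgav. Itgb1 lay above 95.8% of all genes in the table by its mean over the libraries, and Itgb7, the lowest, above 43.3%. The first 4 of these kept the same order in all 4 libraries, and the ranges of Itgb1, Itgb5, Itga6 and Itgb3 did not overlap. Below them, Itgb3 and Itgav overlapped, as did Itgav and Itga9, Itga9 and Itgal, Itgal and Itga4, and Itga4 and Itgb7. Itga4 was nevertheless above Itgb7 within each of the 4 libraries. The summed FPKM of the 4 beta chain genes was 97.8 ± 10.8 (SD, n = 2) in WT and 102.1 ± 6.16 (SD, n = 2) in cKO, against 34.2 ± 1.10 (SD, n = 2) and 34.9 ± 1.84 (SD, n = 2) for the 5 alpha chain genes.

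**Figure D1:**
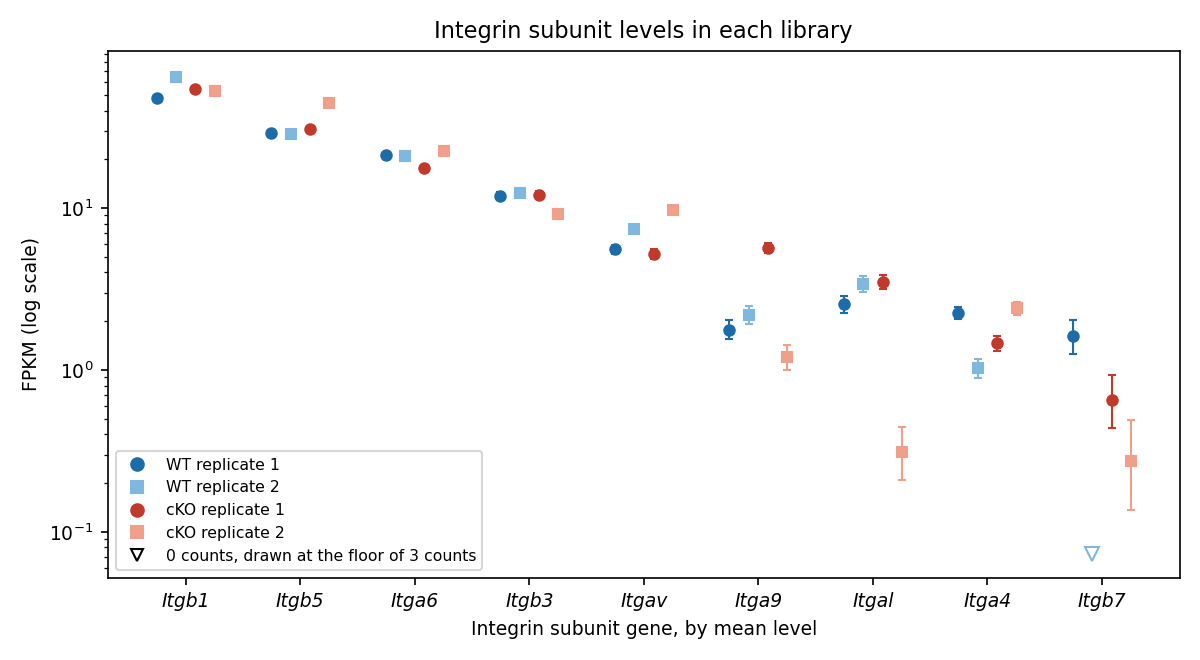
Level of each integrin subunit gene in FPKM, on a log axis, in the 2 WT (blue) and 2 cKO (red) libraries, with 95% Poisson intervals that cover counting error only; the open triangle marks Itgb7 in WT replicate 2, which had 0 counts and is drawn at the floor of 3 counts. The 4 most abundant genes lie close together across libraries, whereas Itgal and Itga9 have 1 library of the cKO group far from the rest.

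Promoter sequences are shown for the 5 members whose entry in the RefSeq promoter table (GRCm38.p6) begins at the gene start given in the files, since these include the αv, α4, β1 and β5 chains of the osteopontin receptors. The 160 bases just before the start are printed 5′ to 3′ on the gene's strand. Capitals mark the GC box GGGCGG and GAGGAA, an ETS motif with the flank preferred by PU.1, the macrophage lineage factor, each on either strand.
Itgb1, chr8:128685494-128685653, plus strand: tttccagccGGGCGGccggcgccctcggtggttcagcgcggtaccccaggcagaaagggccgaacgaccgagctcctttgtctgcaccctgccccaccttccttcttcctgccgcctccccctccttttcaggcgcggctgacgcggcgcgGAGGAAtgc
Itgb5, chr16:33829505-33829664, plus strand: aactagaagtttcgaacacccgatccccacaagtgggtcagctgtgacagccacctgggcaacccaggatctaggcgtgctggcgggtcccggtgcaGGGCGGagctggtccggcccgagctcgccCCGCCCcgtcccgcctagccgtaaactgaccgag
Itgav, chr2:83724237-83724396, plus strand: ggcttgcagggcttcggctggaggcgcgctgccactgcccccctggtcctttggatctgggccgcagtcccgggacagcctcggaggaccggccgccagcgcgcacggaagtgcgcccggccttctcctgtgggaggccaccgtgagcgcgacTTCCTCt
Itga4, chr2:79255266-79255425, plus strand: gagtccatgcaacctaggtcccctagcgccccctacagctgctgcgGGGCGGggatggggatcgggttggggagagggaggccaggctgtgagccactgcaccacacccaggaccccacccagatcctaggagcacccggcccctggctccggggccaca
Itgb7, chr15:102231936-102232095, minus strand: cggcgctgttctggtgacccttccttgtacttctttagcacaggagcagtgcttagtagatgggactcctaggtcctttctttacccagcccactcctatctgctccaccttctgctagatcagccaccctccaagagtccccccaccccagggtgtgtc

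In the 250 bases before the start, the windows of Itgb1, Itgb5 and Itgav, the 3 most abundant of these genes, held 21, 18 and 18 CpG dinucleotides. Those of Itga4 and Itgb7, the lowest in level, held 6 and 5, and the median over all 32851 windows of the table was 6. The letters GAGGAA occurred in the windows of Itgb1 and Itgav and in 23.3% of all windows, and GGGCGG in those of Itgb1, Itgb5 and Itga4 and in 32.7% of all windows. The AP-1 motif TGANTCA, held by 6.75% of all windows, was in none of the 5. A match is a description of the letters and not evidence of binding, and 5 windows are too few for a comparison. Itgb3, Itga6 and Itgal had no entry, and that of Itga9 begins at another start, 105002 bases away.

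The shared beta chain gene Itgb1 and the αv partners Itgb3 and Itgb5 were measured with 799 to 3946 counts per library and had fitted log2 fold changes between -0.23 and 0.35. Itgb1 (ENSMUSG00000025809, GRCm38 chromosome 8, 128685654 to 128733200, plus strand, up to 16 exons in a transcript) encodes β1, which pairs with α4, α6, α9 and αv. Its level was 47.7 and 64.6 FPKM in the WT libraries and 54.3 and 52.5 FPKM in the cKO libraries. Both cKO values lay between the WT values, and the log2 fold change of cKO over WT, fitted with edgeR on the counts, was -0.11 ± 0.22 (SE).

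Itgb5 (ENSMUSG00000022817, chromosome 16, 33829665 to 33949153, plus strand, up to 15 exons), the β5 chain of the vitronectin and osteopontin receptor αvβ5, was at 28.9 and 28.5 FPKM in WT and at 30.8 and 44.4 FPKM in cKO. The groups did not overlap, with cKO replicate 1 just above WT and cKO replicate 2 well above. The log2 fold change was 0.35 ± 0.25 (SE), the largest relative to its error among the 9 genes, and did not pass the edgeR test, with adjusted p = 0.9997. Without cKO replicate 2 it was 0.08. The 10 astrocyte markers summed to 525.1 CPM in cKO replicate 2 against 183.4 to 239.3 CPM in the others. None was at 0 throughout, but S100b had no counts in cKO replicate 2. Both cKO libraries were above WT for 6 of the 10 and below for 1, where 15.8% and 20.0% of all genes were so. The part of astrocytes in the Itgb5 level was not tested.

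Itgb3 (ENSMUSG00000020689, chromosome 11, 104608000 to 104670476, plus strand, up to 15 exons) encodes β3, the other main partner of αv. Its level was 11.9 and 12.3 FPKM in WT and 12.004 and 9.25 FPKM in cKO. Platelets and their precursors are rich in β3; of their 5 markers 2 had counts, and these summed to at most 2.18 CPM in any library. By FPKM the groups overlapped. By TMM-scaled CPM they were 71.0 and 74.4 in WT against 70.7 and 53.3 in cKO, a separation by the small margin between 71.0 and 70.7 that rests on the scaling. The log2 fold change was -0.23 ± 0.27 (SE), and -0.04 without cKO replicate 2.

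The αv chain gene Itgav (ENSMUSG00000027087, chromosome 2, 83724397 to 83806916, plus strand, up to 30 exons) encodes the alpha chain common to αvβ3 and αvβ5. It was at 5.55 and 7.46 FPKM in WT and at 5.20 and 9.69 FPKM in cKO. The cKO libraries lay on either side of both WT libraries, so that the log2 fold change of 0.15 (standard error 0.38) moved to -0.35 without cKO replicate 2 and to 0.52 when cKO replicate 1 was left out. An antisense gene, Gm13684, overlaps 634 exon bases of Itgav, and since the counting strand is not given its reads cannot be told apart, but it had at most 54 counts in a library against 937 or more for Itgav. The ratio of Itgb5 to Itgb3, both partners of αv, was 2.43 and 2.31 by FPKM in WT and 2.57 and 4.80 in cKO. The higher value came from cKO replicate 2, where Itgb5 was highest and Itgb3 lowest of the 4 libraries. With 2 libraries against 2, an exact permutation test of such a ratio cannot give a two-sided p below 0.333.

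Itga6 (ENSMUSG00000027111, chromosome 2, 71745616 to 71858416, plus strand, up to 26 exons), the α6 chain of laminin receptors, was the most abundant of the 5 alpha chain members, at 21.3 and 20.9 FPKM in WT and 17.8 and 22.6 FPKM in cKO. It made up 61.8% ± 2.84 (SD, n = 2) of the summed FPKM of the 5 alpha chain genes in WT and 57.6% ± 6.77 (SD, n = 2) in cKO. The groups overlapped, and the log2 fold change was -0.11 ± 0.20 (SE), or -0.27 without cKO replicate 2. Endothelial cells also carry α6. Their 9 markers summed to 17.2 and 22.1 CPM in WT and 22.8 and 24.5 CPM in cKO. In cKO replicate 2, the library with the highest Itga6, Cldn5, Kdr, Tie1, Esam and Slco1a4 had no counts, while Pecam1 had 324 against 88 to 176 in the others. The part of endothelial cells in the Itga6 level was not tested.

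**Figure D2:**
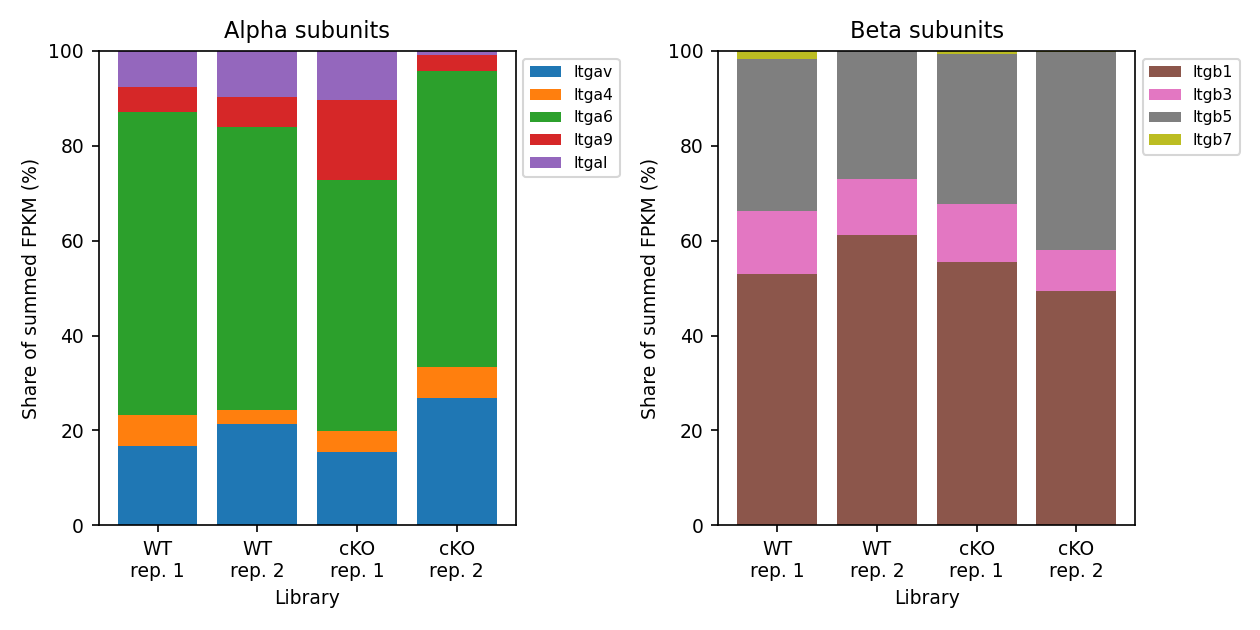
Share of each gene in the summed FPKM of the 5 alpha chain genes (left) and of the 4 beta chain genes (right), in percent, as stacked bars for each library. Itga6 and Itgb1 take the largest share in every library, Itga9 is at 16.9% in cKO replicate 1 against 3.31% to 6.28% in the others, and Itgal at 0.86% in cKO replicate 2 against 7.61% to 10.4%.

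The chains of the α4 and α9 receptors, which bind osteopontin and the vascular ligand VCAM-1, were low and varied between libraries of the same genotype. Itga4 (ENSMUSG00000027009, chromosome 2, 79255426 to 79333123, plus strand, up to 28 exons) was at 2.24 and 1.03 FPKM in WT and 1.46 and 2.40 FPKM in cKO. Each group held 1 higher and 1 lower library, and WT replicate 1 was 2.16-fold above WT replicate 2. The log2 fold change was 0.20 ± 0.55 (SE), and ran from -0.27 without WT replicate 2 to 0.84 without WT replicate 1. Without cKO replicate 2 it was -0.19. Of the gene Cerkl, which overlaps 1124 exon bases of Itga4 on the opposite strand, the highest level in a library was 0.02 FPKM.

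Itga9 (ENSMUSG00000039115, chromosome 9, 118606690 to 118901003, plus strand, up to 28 exons), which encodes the α9 chain, differed most between the cKO libraries together with Itgal. It was at 1.77 and 2.197 FPKM in WT, at 5.67 FPKM in cKO replicate 1 and at 1.20 FPKM in cKO replicate 2. The counts were 216, 253, 732 and 135, so that the 95% Poisson intervals of cKO replicate 1 (680 to 787 counts) and cKO replicate 2 (113.2 to 159.8 counts) lie far apart. Thus 1 cKO library was above both WT libraries and the other below both. In cKO replicate 1 Itga9 was 2-fold or more above each of the other libraries, as were 3.05% of all genes tested. The log2 fold change was 0.76 ± 0.81 (SE), but 1.49 without cKO replicate 2 (edgeR adjusted p = 0.518) and -0.79 without cKO replicate 1.

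Itgal (ENSMUSG00000030830, chromosome 7, 127296260 to 127335138, plus strand, up to 32 exons) encodes αL, which pairs with β2 to form LFA-1, the leukocyte receptor for ICAM-1. It had 265 and 334 counts in WT, 386 in cKO replicate 1 and 30 in cKO replicate 2, or 2.54, 3.40, 3.50 and 0.31 FPKM. A single library, cKO replicate 2, was low, and the 95% Poisson interval of its count, 20.2 to 42.8, lies far below the other libraries. Its level there was lower than in cKO replicate 1 by a factor of 11.5. It was 2-fold or more below each of the other libraries, as were 18.4% of all genes tested. The log2 fold change of -0.67 (standard error 1.13) became 0.21 without cKO replicate 2. Without cKO replicate 1 it was -3.31, and Itgal was then called lower with edgeR adjusted p = 0.0466, as the 1 member called. That fit called 5.72% of 13086 genes, 4.91% lower in cKO, and takes the spread of its only cKO library from the WT pair.

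The partner of αL was not low in the library where Itgal was. Itgb2 was at 96.9 and 93.3 FPKM in WT and 120.4 and 110.1 FPKM in cKO, so that its ratio to Itgal was 27.5 to 38.1 in the other libraries and 353 in cKO replicate 2. Itgam, another partner of β2, was also lowest there, at 7.38 FPKM against 16.7 to 31.7 FPKM. T and NK cells are rich in αL. Of their 10 markers 4 had counts, with sums of 47.3 and 47.0 CPM in WT and 35.7 and 27.7 CPM in cKO. Most of this was Cd28, with 711, 682, 588 and 387 counts, and the T cell receptor component Cd3e had 6 counts in WT replicate 1 and 0 in the others. The 10 neutrophil and monocyte markers, of cells rich in αL, summed to 147.1 CPM in cKO replicate 2 against 13.8 to 25.3 CPM in the others, with none of them at 0 in that library, so that they were highest where Itgal was lowest. The part of these cells in the Itgal level was not tested.

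Itgb7 (ENSMUSG00000001281, chromosome 15, 102215995 to 102231935, minus strand, up to 15 exons), the β7 chain that pairs with α4 or αE, was the lowest of the members. Its counts were 70 and 0 in WT and 30 and 11 in cKO, or 1.61, 0, 0.65 and 0.27 FPKM. The WT libraries thus held both the highest and the lowest value, at least 21.8-fold apart by CPM against a floor of 3 counts in WT replicate 2; 1.99% of all genes tested were 10-fold or more lower in that library than in WT replicate 1. The log2 fold change was -0.82 ± 2.38 (SE), and the WT counts of 70 and 0 differed by more than counting error, with 95% Poisson intervals of 54.6 to 88.4 and 0 to 3.69.

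Over the genes tested together, none of the 9 members passed the edgeR quasi-likelihood test after Benjamini-Hochberg adjustment, where 0.0% of 13086 genes passed, and none had an unadjusted p under 0.05, where 4.65% of genes did. None passed DESeq2, where 0.387% of 13448 genes with an adjusted p passed. Of the members 4 were fitted higher and 5 lower in cKO. Their median log2 fold change was -0.11, against -0.03 for all genes tested. Their median size of change without sign was 0.23 against 0.42 for all genes. The groups did not overlap in CPM for 1 member higher in cKO, Itgb5, where 15.8% of all genes were so, and for 1 lower, Itgb3, where 20.0% were. Together these are 2 of 9, below the 35.9% of all genes. Leaving out 1 library turned the fitted direction for 7 of the 9, and the share of all genes that turned was not computed. Itgb5 remained higher and Itgb3 lower in each of these fits. This largely follows from their groups not overlapping and is no separate result.

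**Figure D3:**
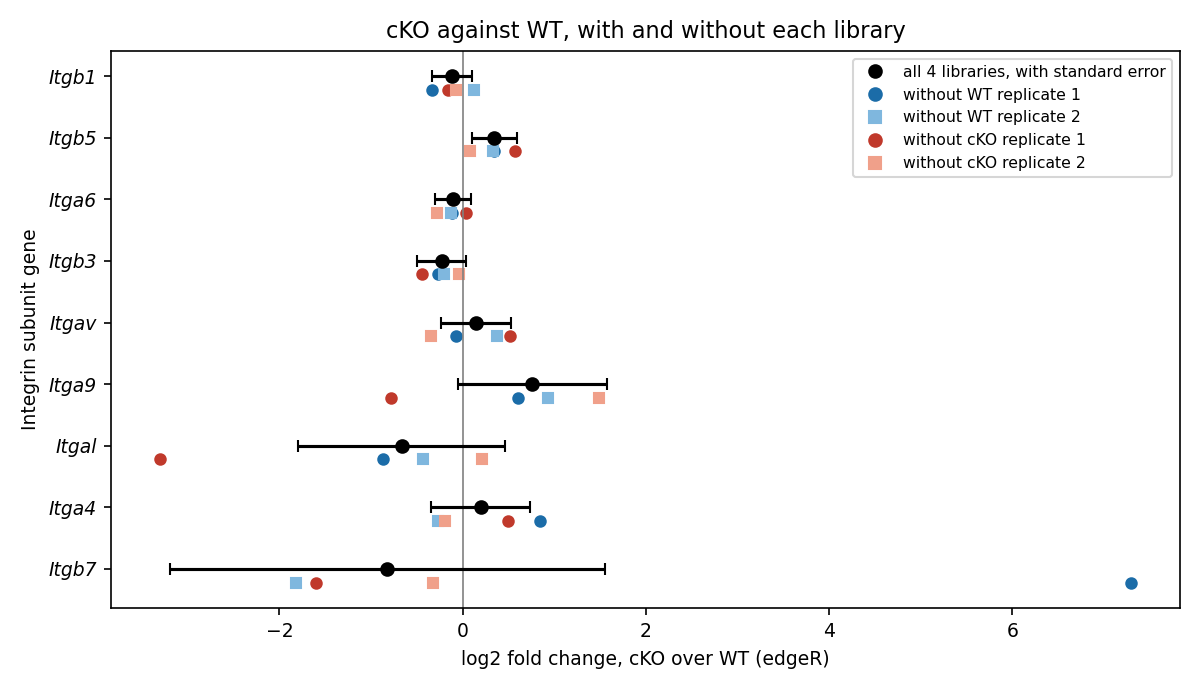
log2 fold change of cKO over WT for each member with its standard error (black), and the same without each library in turn (coloured). All error bars except that of Itgb5 reach 0, and the value of Itgb7 without WT replicate 1, at 7.30, rests on a WT library with 0 counts and is no measure of size.

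For 8 of the 9 members the gap between the cKO libraries was larger than that between the groups, Itgb1 being the exception. The share of all genes for which this held was not computed, so it is not shown to be particular to the members. Between cKO replicate 2 and cKO replicate 1, Itga9, Itgal and Itgb7 were lower in replicate 2 by 2-fold or more, 3 of 9, where 26.3% of all genes were, and 0 were higher by as much, where 15.6% were. In either direction 41.8% of all genes differed so. The second cKO library was the highest of the 4 for Itgav, Itgb5, Itga4 and Itga6, 4 of 9, where it was for 32.1% of all genes, and the lowest for Itgal, Itga9 and Itgb3, 3 of 9, where it was for 39.1%. Between the WT libraries Itga4 and Itgb7 were 2-fold or more lower in WT replicate 2, where 9.47% of all genes were, and 0 were higher, where 11.2% were, or 20.7% in either direction. Itgal was the member more than 10-fold lower in cKO replicate 2 than in cKO replicate 1, as were 14.5% of all genes tested and 5.09% of those at a mean of at least 5 CPM.

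**Figure D4:**
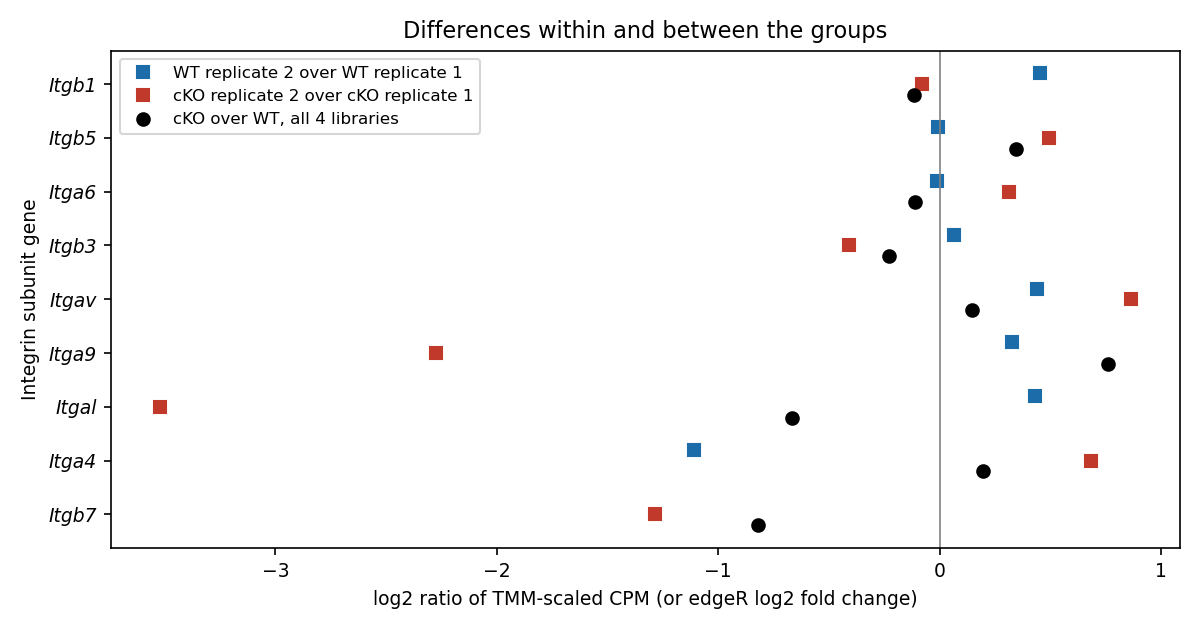
log2 ratio between the WT libraries (blue), between the cKO libraries (red) and between the groups (black) for each member; the WT ratio of Itgb7 is not drawn because WT replicate 2 had 0 counts. The red points of Itgal (-3.52) and Itga9 (-2.28) lie much farther from 0 than the difference between the groups.

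The authors' deposited tables compare 1 cKO with 1 WT library each, and every gene called there differed at least 2-fold, with p up to 0.0496. These tables share libraries and are not independent of each other. The members have 36 entries in the authors' deposited tables, of which 9 are called. For cKO replicate 1 they called Itga9 higher against both WT libraries, with log2 fold changes of 1.68 and 1.37 in the authors' deposited tables. For cKO replicate 2 the authors' deposited tables called Itgal lower against both, with -3.03 and -3.44, and Itga4 higher against WT replicate 2, with 1.22. Itgb7 was called in all 4 of the authors' deposited tables, lower against WT replicate 1 and higher against WT replicate 2. No member was called in 1 direction in all 4. The calls numbered 2, 2, 2 and 3 of 9 members, for cKO replicate 1 against WT replicates 1 and 2 and cKO replicate 2 against WT replicates 1 and 2, where the authors' deposited tables called 36.1%, 34.8%, 46.8% and 48.8% of their genes. By direction, the authors' deposited tables called 20.3%, 17.2%, 18.1% and 17.1% of genes higher in cKO and 15.8%, 17.6%, 28.7% and 31.7% lower, in the same order of tables, and 1, 2, 0 and 2 members higher and 1, 0, 2 and 1 lower.

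Among 18 other integrin subunit genes, 7 had counts enough to be tested and 0 passed edgeR or DESeq2, with 2 at an unadjusted edgeR p under 0.05, where 4.65% of all genes were. Itgae, whose αE chain pairs with β7 to bind E-cadherin, was counted 0 and 1 times in WT and 62 and 56 times in cKO (unadjusted p = 0.021). Both cKO libraries were far above both WT libraries, at 0.81 and 0.83 FPKM, while its partner Itgb7 was at 0.65 and 0.27 FPKM there. Itgax, the αX chain of a complement receptor, was at 71.3 and 61.0 FPKM in WT and 42.6 and 22.9 FPKM in cKO (unadjusted p = 0.032). Itga5, the fibronectin receptor chain that pairs with β1, was at 11.9 and 9.67 FPKM in WT and 15.9 and 9.79 FPKM in cKO, above Itgav in every library. Itgb8, which with αv activates latent TGF-β, had 22 counts in WT replicate 2 and 0 in the others.

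The transcript of the ligand osteopontin was below WT in each cKO library, without passing the test. Spp1 was at 25031 and 20736 FPKM in WT and 15487 and 14304 FPKM in cKO. Its log2 fold change, -0.66 ± 0.14 (SE), did not pass edgeR (adjusted p = 0.9997). Of 22 ligand genes 11 were tested and 0 passed edgeR or DESeq2, with 1 at an unadjusted p under 0.05, Spp1 itself. Their median log2 fold change was -0.26, and the groups did not overlap for 3 higher in cKO and 1 lower, where 15.8% and 20.0% of all genes were so. Those higher were F11r, the junctional ligand of LFA-1, Icam1, its main ligand, and Thbs1, a matrix ligand of αvβ3, with log2 fold changes of 0.40 ± 0.19, 0.34 ± 0.19 and 0.72 ± 0.46 (SE). Without cKO replicate 2 these were 0.23, 0.23 and 0.82, and without WT replicate 2 that of Thbs1 was 0.46. Cd44, the receptor for osteopontin that is not an integrin, was at 3.93 and 3.30 FPKM in WT and 2.97 and 3.84 FPKM in cKO, with overlapping groups.

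Of 11 genes that switch integrins on from within 10 were tested, and 0 passed edgeR or DESeq2, with 0 at an unadjusted p under 0.05. Fermt3, the kindlin of blood and immune cells, was at 98.5 and 109.8 FPKM in WT and 102.5 and 131.7 FPKM in cKO. Tln1, the main talin, was at 45.6 and 49.8 FPKM in WT, 54.0 FPKM in cKO replicate 1 and 25.9 FPKM in cKO replicate 2, so that a single library was low. Tln2 was below WT in each cKO library, at -0.36 ± 0.22 (log2 fold change, SE), or -0.16 without cKO replicate 2, and Rasgrp2, an activator of the switch GTPase Rap1, had 24, 13, 90 and 1 counts. Of 5 genes that hold integrins inactive, 4 were below WT in each cKO library, as were 20.0% of all genes, and 0 passed edgeR or DESeq2 or had an unadjusted p under 0.05. These were Dok1, Sharpin and Flna, with log2 fold changes of -0.72 ± 0.31, -0.27 ± 0.21 and -0.18 ± 0.18 (SE), and Itgb1bp1, with 82 and 93 counts in WT and 57 and 58 in cKO, which the naming rule does not cover and was chosen after its values were seen. Without cKO replicate 2 the first 3 of these log2 fold changes were -0.44, -0.41 and -0.15. That of Sharpin was -0.15 without cKO replicate 1, and that of Flna was -0.30 without WT replicate 1 and -0.07 without WT replicate 2. The other gene, Dok2, was at 4.26, 5.13, 3.23 and 12.05 FPKM.

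Downstream, the adaptors that tie integrins to actin had a median log2 ratio of -0.84 between cKO replicate 2 and cKO replicate 1, where that of all genes tested was -0.08. The other integrin subunits tested were at -0.73, so the shift was not particular to the adaptors. The remaining lists lay between -0.27 and 0.33. Of 11 adaptors tested 0 passed edgeR or DESeq2 or had an unadjusted p under 0.05. The adaptors' median log2 fold change of -0.09 moved to -0.62 without cKO replicate 1 (all genes -0.15) and to 0.12 when cKO replicate 2 was left out (all genes -0.02). Pxn, encoding the focal adhesion scaffold paxillin, was at 15.2 and 19.2 FPKM in WT, 12.1 FPKM in cKO replicate 1 and 1.33 FPKM in cKO replicate 2. The actin-binding genes Zyx and Actn4 were likewise lowest in that library, at 13.2 and 19.6 FPKM against 23.3 to 26.0 and 43.2 to 50.4 FPKM. Vcl, encoding vinculin, was at 1.25 and 1.08 FPKM in WT and 2.33 and 1.98 FPKM in cKO. Among 12 kinases and adaptors of outside-in signalling 0 passed edgeR or DESeq2 or had an unadjusted p under 0.05, and the median was 0.08. Fyn, encoding a Src family kinase, was at 3.38 and 3.96 FPKM in WT and 4.07 and 10.2 FPKM in cKO, highest in cKO replicate 2. Its log2 fold change of 0.91 ± 0.56 (SE) was 0.12 without that library. That of the adaptor gene Crkl was -0.50 ± 0.27 (SE), and -0.70 without cKO replicate 2. Ptk2, encoding FAK, had at most 19 counts in a library. Of 5 membrane partners 0 passed edgeR or DESeq2 or had an unadjusted p under 0.05. Cd47, the integrin-associated protein, was at 37.9 and 29.9 FPKM in WT and 42.5 and 46.6 FPKM in cKO, and the groups overlapped for the tetraspanin genes Cd9, Cd81 and Cd151.

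**Figure D5:**
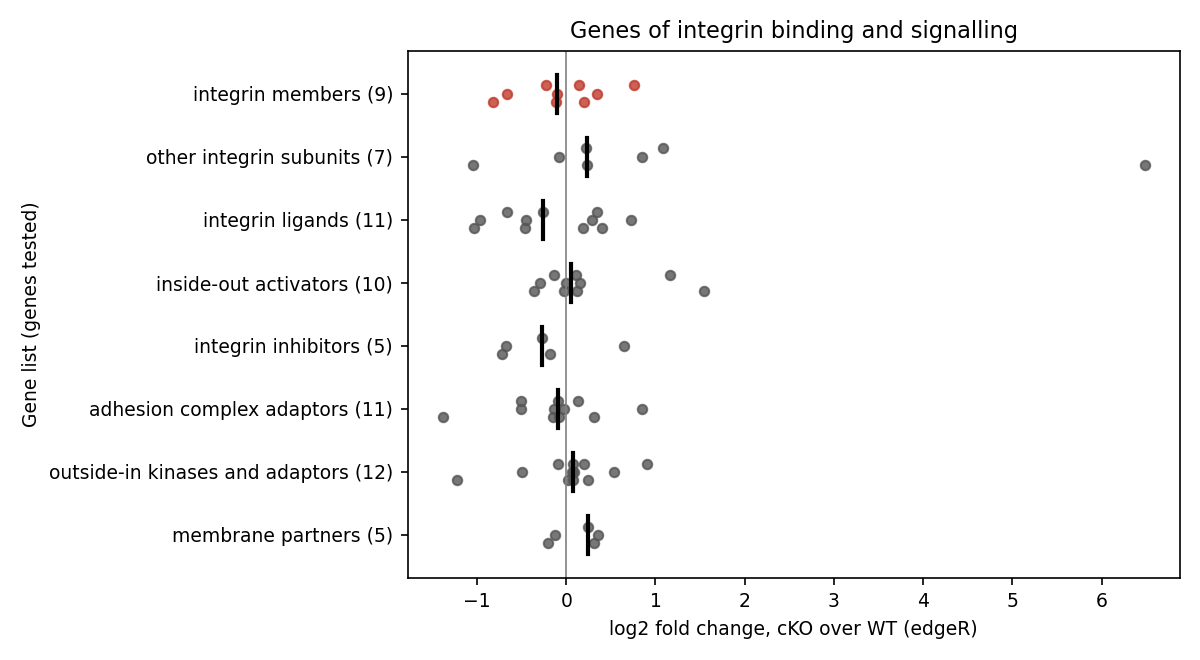
log2 fold change of cKO over WT for each tested gene of the integrin lists (points) with the median of each list (black bar). The medians lie between -0.27 and 0.25, and the point at 6.48 is Itgae, whose size rests on WT libraries with 0 and 1 counts.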

How the data were processed

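Bowtie2 2.2.3, TopHat2 2.0.12, HTSeq 0.6.0 and mm9 are named in the submitters' processing notes; settings, strand and annotation are not given in the sources used here. Gene positions were those of GRCm38 (identical to GENCODE M21 for 92.1% of 21008 shared genes). The authors deposited FPKM for 21044 genes and, per the file headers, 4 tables with read counts, a log2 fold change and p-values for 1 cKO against 1 WT library, by a test the headers do not name. Joining them gave counts for 18459 genes. Where both tables of a library lacked a gene, its count was recovered from FPKM (4315 of 73836 values, 100.0% whole within 0.001, none above 4).

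All genes were fitted together in edgeR 4.0.16 (R 4.3.3) with TMM, filterByExpr and the quasi-likelihood test, without a pairing term, and p-values were adjusted by Benjamini-Hochberg over 13086 genes at 0.05. All 9 members passed the filter. Standard errors came from the F statistic. Alternatives were DESeq2 1.42.0, limma 3.58.1 on log2(FPKM + 1, 0.5 or 0.1), other scalings and filters, a replicate block, and leaving out each library. The members, lists and tests were chosen with earlier results of these data known. Up to 4 genes of each of 7 lists, by the smallest p, and some partners whatever their values are named; 1 gene that this rule names is not reported here. Intervals and the floor of 3 counts cover counting error only.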

Additional observations from a re-analysis of the deposited data

How the results depend on the processing

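No gene passed under edgeR with any scaling, filter or the replicate block, nor with limma; at an unadjusted p under 0.05 edgeR gave 608 genes. DESeq2 gave 52 calls. Leaving out each library gave 0 to 748 genes, and 0 to 1 members (Itgal), the highest without cKO replicate 1. The members' median log2 fold change of -0.11 was 0.030 at a mean of at least 5 CPM, which drops Itgb7, -0.055 with limma on log2(FPKM + 1), with or without the filter on low values, and on log2(FPKM + 0.5), 0.14 on log2(FPKM + 0.1), 0.10 with the replicate block, and -0.15 to -0.069 over leaving out each library. The labels tie no origin to the replicate number, and deviations of libraries with the same number correlated at -0.0186 across genes. A single correlation over 4 libraries does not exclude a pairing. Itgb7 reversed to 1.57 with the replicate block and to 0.36 with limma on log2(FPKM + 0.1), as its counts include a 0; the block changed no other direction or call of a member. Leaving out each library moved Itgav over -0.35 to 0.52, Itgb1 over -0.33 to 0.12, Itgb7 over -1.82 to 7.30, Itga4 over -0.27 to 0.84, Itga6 over -0.27 to 0.040, Itga9 over -0.79 to 1.49 and Itgal over -3.31 to 0.21, and each turned direction; beyond the zero count the cause was not tested. Members whose groups did not overlap numbered 2 by CPM, 1 by FPKM and 4 to 7 without 1 library, when fewer libraries must be apart. The share of all genes was computed only by CPM over the 4 libraries, at 35.9%. At the authors' adjusted p under 0.001, with no minimum fold, 6, 6, 7 and 9 members passed, in place of the 2, 2, 2 and 3 called. The authors' adjusted p can lie below their unadjusted p. For Itga6 in cKO replicate 2 against WT replicate 2 these were 0.00059 and 0.0029 by the authors' test. This cut-off need not be stricter than the same one on the unadjusted p. The share of all genes passing this cut-off was not computed, so these counts are not shown to be particular to the members. Counts were lowest for Itgb7, at most 70 in a library.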
